A study of Mus musculus with 9 samples.

Results

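Keratins are the intermediate filament proteins of epithelial cells, and this account describes the transcripts of the whole keratin family in gastric tumours of mice. The members were all probes whose deposited gene name, in any case, began with KRT and a digit, which left out the keratin-associated genes named KRTAP, KRTCAP and KRTDAP. The rule used names only. It found 68 of the 45281 probes of the Illumina MouseWG-6 v2.0 bead array, which stood for 50 of the 28894 genes named there. Of these genes, 27 lie on chromosome 11 and 22 on chromosome 15, and the pseudogene named KRT2-PS1 on the array was not placed. By the roles assigned to them, 6 probes belonged to simple-epithelial keratins, 20 to squamous keratins, 32 to hair and hair follicle keratins and 10 to other keratins.

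All mice carried the gp130Y575F/F mutation on a mixed 129/BL6 background and were 6 to 8 weeks old, so that no group had the normal receptor. gp130 is the signalling receptor chain shared by interleukin 6 (IL6) and interleukin 11 (IL11). IL6 mice and IL11 mice received 5 µg of the recombinant human cytokine in 200 µl PBS by 1 intraperitoneal injection, and PBS mice received 200 µl of the vehicle alone. Tumours were taken 60 min later, with 3 mice and 3 arrays in each group and n = 3 for every group value given here.

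A keratin filament is built from pairs of 1 type I and 1 type II keratin, and each kind of epithelium makes its own pairs. Glandular stomach and other single-layered epithelia make Krt8 and Krt18 with Krt19, Krt7 or Krt20. Stratified squamous epithelia make Krt5 and Krt14 in their basal layer and others, such as Krt4 and Krt13 or Krt1 and Krt10, above it. The mouse stomach contains both, since its forestomach is lined by squamous epithelium and the rest by glandular mucosa.

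The promoters of 4 members are shown because they stand for both epithelial classes, 1 type I and 1 type II gene each. They come from RefSeq on build GRCm38.p6, run 5′ to 3′ on the gene's strand, and span 250 bases before to 50 bases after an annotated transcript start. Capitals mark matches to TATAAA in Krt8, where matches on both strands overlap, and to TGANTCA (AP-1) in Krt13, the one of its windows that lies farthest upstream. The windows of Krt18 and Krt5 held no match to these motifs or to TTCNNNGAA (STAT).
Krt8 promoter, chr15:102004293-102004592, minus strand: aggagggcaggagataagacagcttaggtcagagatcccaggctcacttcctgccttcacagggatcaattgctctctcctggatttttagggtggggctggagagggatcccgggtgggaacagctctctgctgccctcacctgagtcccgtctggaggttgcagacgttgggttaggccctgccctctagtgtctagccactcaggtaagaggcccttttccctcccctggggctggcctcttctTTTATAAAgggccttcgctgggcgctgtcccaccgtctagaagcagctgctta
Krt18 promoter, chr15:102027966-102028265, plus strand: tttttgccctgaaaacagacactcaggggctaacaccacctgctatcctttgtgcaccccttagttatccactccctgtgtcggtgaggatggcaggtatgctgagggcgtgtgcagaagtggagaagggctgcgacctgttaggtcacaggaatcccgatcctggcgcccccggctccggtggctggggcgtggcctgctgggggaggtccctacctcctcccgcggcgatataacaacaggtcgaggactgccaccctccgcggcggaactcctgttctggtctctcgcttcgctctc
Krt13 promoter, chr11:100121517-100121816, minus strand: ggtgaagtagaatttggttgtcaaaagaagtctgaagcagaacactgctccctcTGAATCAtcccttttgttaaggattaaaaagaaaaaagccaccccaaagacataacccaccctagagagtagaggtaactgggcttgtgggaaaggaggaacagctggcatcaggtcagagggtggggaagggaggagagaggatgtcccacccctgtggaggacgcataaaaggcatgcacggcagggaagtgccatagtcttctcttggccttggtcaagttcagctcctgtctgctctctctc
Krt5 promoter, chr15:101712856-101713155, minus strand: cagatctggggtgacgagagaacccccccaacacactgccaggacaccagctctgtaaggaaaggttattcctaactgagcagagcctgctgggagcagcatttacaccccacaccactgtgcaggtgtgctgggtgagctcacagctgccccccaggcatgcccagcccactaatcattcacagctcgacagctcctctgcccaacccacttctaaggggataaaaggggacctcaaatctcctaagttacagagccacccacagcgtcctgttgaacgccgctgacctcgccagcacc
Windows were at hand for 33 of the 50 keratin genes, 34 windows in all, and each motif was sought on both strands. TATAAA stood in 50% of the keratin windows, against 13.6% of all 32851 windows of that length. It was found in 70.6% of the 17 windows of hair keratins, 50% of the 4 simple-epithelial windows and 11.1% of the 9 squamous windows. TGANTCA stood in 5.88% of the keratin windows, against 7.81% of all windows, and both keratin windows with it belonged to Krt13. TTCNNNGAA stood in 11.8% of the keratin windows, against 8.3% of all windows, and in 0 of the simple-epithelial and squamous ones. A match is a run of letters and says nothing of binding.

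Averaged over probes, the raw signal was 398 to 652 on the IL6 arrays, 448 to 524 on the IL11 arrays and 300 to 419 on the PBS arrays, and 37.4% to 40.6% of probes were detected on each array. A probe counted as detected on an array where its deposited detection value was at least 0.95. The arrays of a group correlated across probes at 0.977 to 0.983 for IL6, 0.982 to 0.986 for IL11 and 0.931 to 0.941 for PBS. Socs3, the feedback inhibitor gene of gp130 signalling, rose by 2.32 ± 0.29 on the log2 scale with IL6 (SE, adjusted p = 0.0129 in limma), and its change with IL11 was 1.85 ± 0.29 (SE, adjusted p = 0.0615 in limma). The call with IL6 was lost without IL6 replicate 1, 2 or 3 (limma adjusted p of 0.071, 0.0586 and 0.112), and without PBS replicate 1 the change with IL11 passed (2.17, adjusted p = 0.0114 in limma). For the keratins, 2 arrays stood apart from the other 7, IL11 replicate 3 and PBS replicate 3, on which many squamous keratins were high. The main comparisons of squamous keratins are therefore also given without these arrays, a choice made after seeing the data, and other keratin changes whose sign turned without them are listed with the processing alternatives. Levels are background-corrected and quantile-normalized log2 signals unless called raw, and they compare arrays for 1 probe, never probes with each other.

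Of the 68 keratin probes, 15 were detected on all 9 arrays, 11 on 3 to 8, 8 on 1 or 2, and 34 on none. The 26 probes (21 genes) detected on at least 3 arrays entered the test, 38.2% of the family, against 41.8% of all probes. All 5 simple-epithelial genes were among them with 1 probe each, detected on every array. A second Krt8 probe, listed under the older name KRT2-8, was detected on none. Of the squamous keratins 11 of 20 probes entered (8 genes), of the hair keratins 5 of 32 (4 genes) and of the others 5 of 10 (4 genes). Probes detected on 1 or 2 arrays alone, among them those of Krt5, Krt17 and Krt6a, did not enter. Counts over these 26 therefore describe them and not the family.

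None of the 26 keratin probes passed an adjusted p of 0.05 in any comparison. With IL6 against PBS, 0.264% of the 18925 probes tested passed in limma. The smallest adjusted p of a keratin was 0.225, for Krt80, the only keratin with an unadjusted p under 0.05, which 14.4% of all probes had. With IL11 against PBS, 0.0898% of all probes passed, the smallest keratin value was 0.346, again for Krt80, and 1 keratin against 13.4% of all probes had an unadjusted p under 0.05. In IL11 against IL6, 0% of all probes passed, and 0 keratins against 2.35% of all probes had an unadjusted p under 0.05. The median log2 change of the 26 keratin probes was -0.09 with IL6, -0.09 with IL11 and 0.05 for IL11 minus IL6, against -0.01, -0.01 and 0.00 over all probes. Both cytokine comparisons share the 3 PBS arrays. A p that misses the threshold does not show that levels did not differ.

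**Figure D1:**
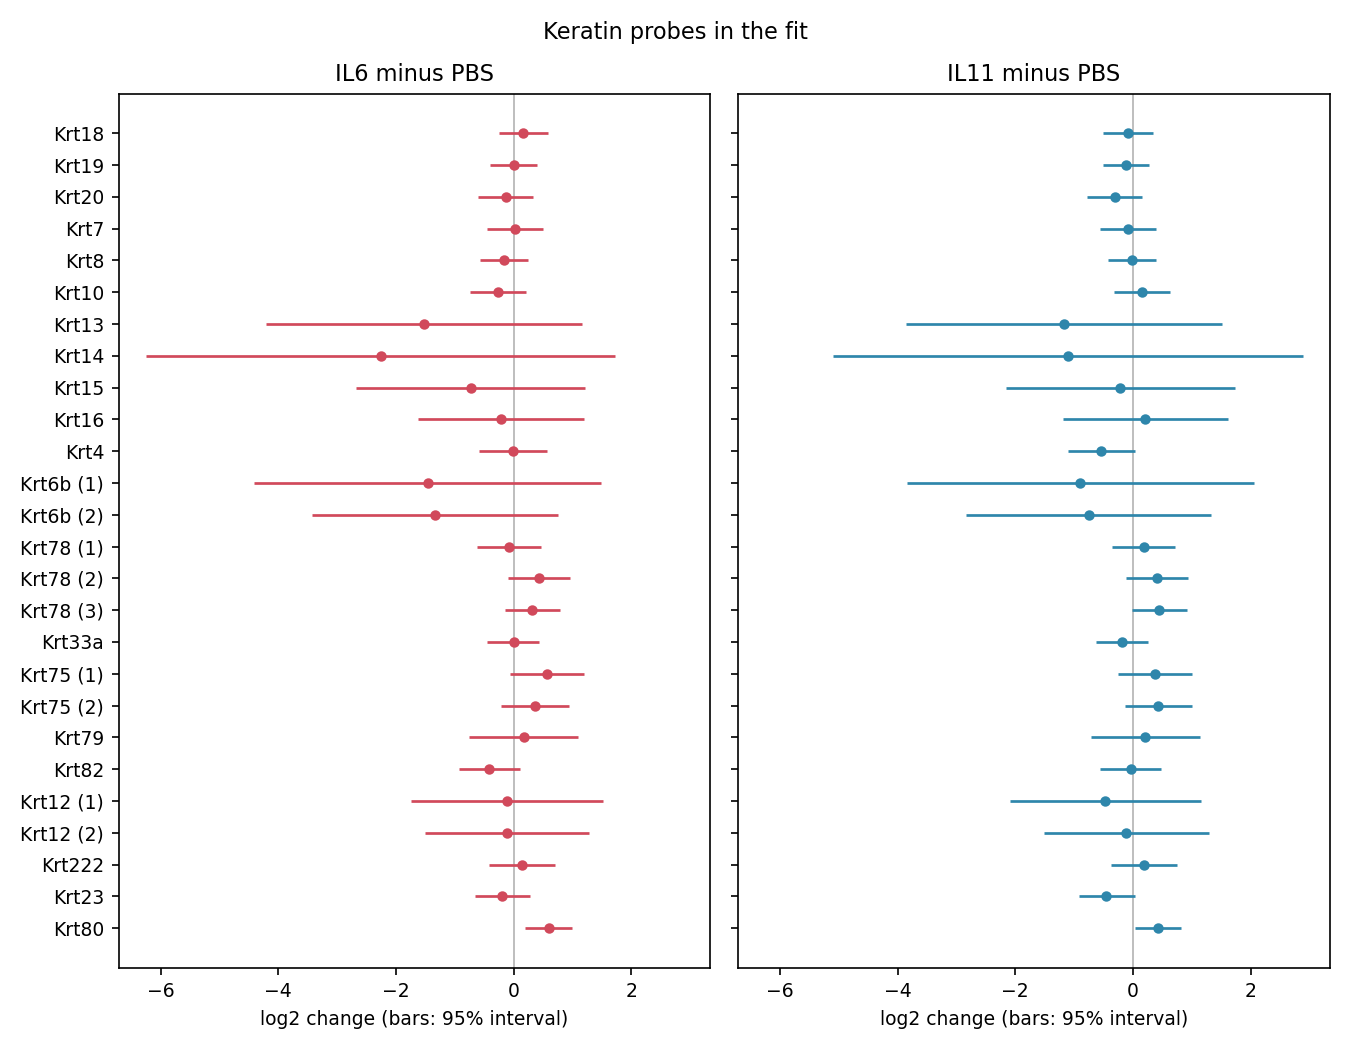
Log2 change of each of the 26 keratin probes tested, IL6 minus PBS on the left and IL11 minus PBS on the right, with points for the fitted change and bars for the 95% interval; numbers in brackets tell probes of 1 gene apart. Simple-epithelial keratins have short bars near 0 (changes of -0.16 to 0.16 with IL6 and -0.31 to -0.01 with IL11), while the bars of Krt13, Krt14 and Krt6b span several log2 units.

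The simple-epithelial keratins were bright and even. Krt8, the type II keratin of simple epithelia, had log2 levels of 14.04, 13.75 and 14.24 on the IL6 arrays, 14.06, 14.30 and 14.11 on the IL11 arrays and 14.32, 14.03 and 14.16 on the PBS arrays. Its raw signal stayed between 13746.3 and 22053.2. The groups overlapped, and the change was -0.16 ± 0.18 (SE) with IL6, or 0.893-fold with an interval of 0.674 to 1.19, and -0.01 ± 0.18 (SE) with IL11, or 0.99-fold with an interval of 0.747 to 1.31.

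Krt18, the type I partner of Krt8, had log2 levels of 13.57, 13.23 and 13.69 with IL6, 13.22, 13.40 and 13.11 with IL11 and 13.49, 13.35 and 13.15 with PBS. Again no group lay apart from another. The changes of Krt18 were 0.16 ± 0.19 (SE) with IL6, 0.839-fold to 1.5-fold by the 95% interval, and -0.09 ± 0.19 (SE) with IL11, 0.703-fold to 1.26-fold.

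Krt19, a small type I keratin of ducts and glands, read 13.75, 13.76 and 14.16 with IL6, 13.86, 13.69 and 13.77 with IL11 and 13.75, 14.04 and 13.88 with PBS, as log2 levels. IL6 replicate 3 was its highest array and IL11 replicate 2 its lowest, and the groups overlapped. Its change was 0.00 ± 0.18 (SE) with IL6 and -0.12 ± 0.18 (SE) with IL11, with limma adjusted p of 1 and 0.788.

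Krt7, a type II keratin of ducts and glands, had log2 levels of 12.78, 12.34 and 13.01 with IL6, 12.53, 12.79 and 12.48 with IL11 and 12.87, 12.70 and 12.49 with PBS. The IL6 arrays spread more widely than the others, from the lowest to the highest level of this probe. The change was 0.02 ± 0.21 (SE) with IL6 and -0.09 ± 0.21 (SE) with IL11.

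Krt20, the type I keratin of gastric pit cells and intestinal surface cells, had log2 levels of 13.27, 13.69 and 13.58 with IL6, 13.41, 13.39 and 13.19 with IL11 and 13.58 and 13.36 on PBS replicates 1 and 3. PBS replicate 2 was the highest of the 9 arrays and IL11 replicate 3 the lowest. Its change of -0.31 ± 0.21 (SE) with IL11 was the most negative of the 5 simple-epithelial genes and had an adjusted p of 0.505 in limma, and with IL6 the change was -0.13 ± 0.21 (SE).

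In IL11 minus IL6 the 5 genes lay between -0.25 for Krt18 and 0.15 for Krt8, each with an adjusted p of 1 in limma. Their median change was 0.00 with IL6, -0.09 with IL11 and -0.12 for IL11 minus IL6. When arrays were scaled to a common median in place of quantile normalization, the medians were -0.29, -0.22 and 0.03, while the median of all probes stood at -0.15, -0.09 and 0.04.

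**Figure D2:**
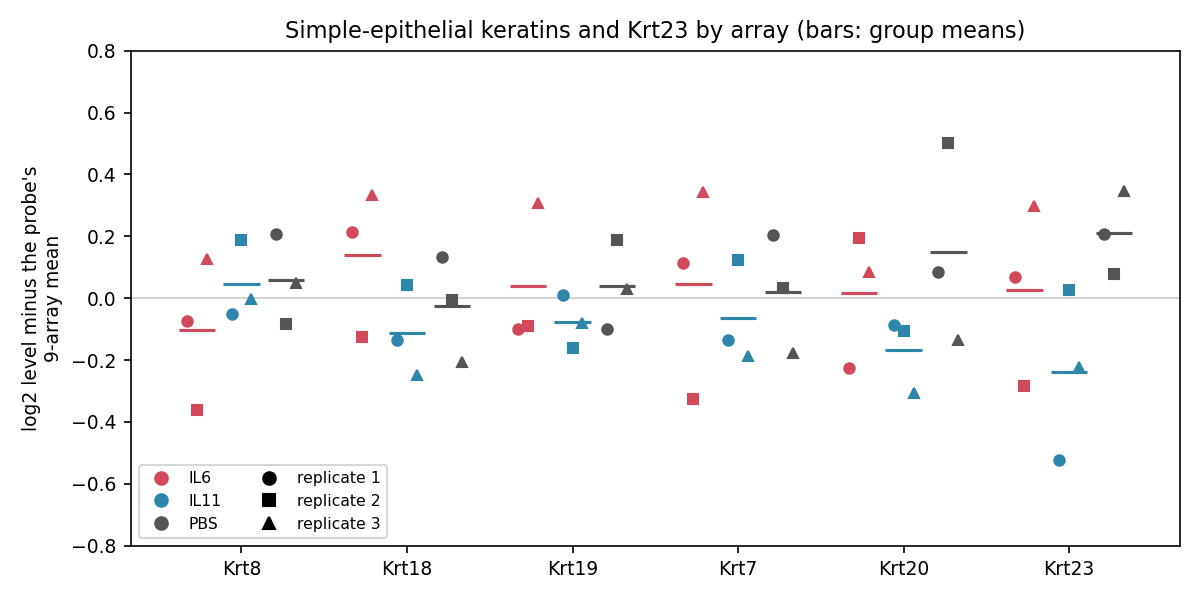
Log2 level of Krt8, Krt18, Krt19, Krt7, Krt20 and Krt23 on each of the 9 arrays, minus the probe's own mean over the arrays, with colours for groups, marker shapes for replicates and bars for group means. Every point of the first 5 genes lies within about a log2 unit of the others of its probe, and the groups overlap in all 5, while the 3 IL11 points of Krt23 lie under the 3 PBS points.

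Markers outside the family bore on the tissue label. The gastric mucosal gene Gkn1 was detected on every array, at raw signals of 13644.4 to 20980.4 with IL6, 17853.7 to 19264.4 with IL11 and 8992.3 to 14471.5 with PBS. After normalization its changes were 0.06 ± 0.20 (SE, adjusted p = 0.91 in limma) with IL6 and 0.21 ± 0.20 (SE, adjusted p = 0.639 in limma) with IL11. The epithelial adhesion gene Epcam, whose probe was dim, was detected on 7 of the 9 arrays, with changes of 0.68 ± 0.27 (SE, adjusted p = 0.31 in limma) with IL6 and 0.70 ± 0.27 (SE, adjusted p = 0.336) with IL11. The probe of the pit-cell mucin gene Muc5ac that was detected on 8 arrays ranged in raw signal from 183.2 to 2211.7 with IL6, 436.2 to 2156.6 with IL11 and 100.8 to 1457.9 with PBS. Its changes were 0.95 ± 1.56 (SE, adjusted p = 0.8 in limma) with IL6 and 2.05 ± 1.56 (SE, adjusted p = 0.561 in limma) with IL11. Vim, the vimentin gene of mesenchymal cells, was detected on all arrays, with changes of -0.53 ± 0.34 (SE, adjusted p = 0.473 in limma) with IL6 and -0.17 ± 0.34 (SE, adjusted p = 0.837) with IL11.

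The squamous keratins formed a contrast to the simple-epithelial ones, since many of them were dim on 7 arrays and bright on 1 or 2. Krt14, the type I keratin of basal squamous cells, had raw signals of 385.7, 324.2 and 160.8 on the IL6 arrays, 207.8, 204.2 and 2435 on the IL11 arrays and 148.6, 158.3 and 17220 on the PBS arrays. PBS replicate 3 was the highest array by far and IL11 replicate 3 the second. Against the median of the other 7 arrays, the log2 level of Krt14 was 4.10 higher on IL11 replicate 3 and 7.08 higher on PBS replicate 3.

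Krt5, the type II partner of Krt14, was detected on these 2 arrays alone and so did not enter the test. Its raw signals were 102.9, 112.4 and 85.5 with IL6, 103.7, 88.9 and 208.2 with IL11 and 82.9, 81.8 and 2049.3 with PBS. The log2 departures were 2.45 on IL11 replicate 3 and 6.55 on PBS replicate 3, in the same order as for its partner.

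Krt15, another type I keratin of basal cells, had raw signals of 138.7, 151.9 and 100.2 with IL6, 108.3, 112.4 and 226.4 with IL11 and 82.2, 102.1 and 325 with PBS. Its departures were 2.12 on IL11 replicate 3 and 3.00 on PBS replicate 3, the closest of the basal keratins between these arrays. Krt17, a type I keratin of hair follicles and activated keratinocytes, had raw signals of 119.9, 112.6 and 87 with IL6, 109, 100.6 and 210.3 with IL11 and 73.8, 93.2 and 2824.9 with PBS, and like Krt5 it was detected on these 2 arrays alone.

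Krt13, the type I keratin of the upper layers of internal squamous epithelia, was detected on every array by 1 of its 2 probes. Its raw signals were 419.6, 213.5 and 181.4 with IL6, 266.4, 187.4 and 335.5 with IL11 and 132.9, 146.6 and 4033.2 with PBS. PBS replicate 3 stood far above the rest, whereas in raw signal IL11 replicate 3 lay below IL6 replicate 1; its log2 departures were 1.09 on IL11 replicate 3 and 5.17 on PBS replicate 3. The second probe, listed as KRT1-13, was detected on no array.

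Krt4, the type II partner of Krt13, was also highest on PBS replicate 3 in log2 level, at 5.92, but by far less. Its raw signals were 155.1, 163.3 and 97.2 with IL6, 105.7, 104.2 and 106 with IL11 and 89.4, 103.8 and 132.6 with PBS, near background throughout. It was detected on 2 IL6 arrays, no IL11 array and 2 PBS arrays, and its departures were -0.08 on IL11 replicate 3 and 0.88 on PBS replicate 3.

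The keratins of activated squamous cells were split. Of the 2 probes of Krt6b, a type II keratin, 1 had raw signals of 142.6, 179.5 and 140.7 with IL6, 114.7, 156.2 and 281.9 with IL11 and 99.7, 102.2 and 1799.8 with PBS. Both Krt6b probes put PBS replicate 3 highest and IL11 replicate 3 next, with departures of 1.97 and 1.20 on IL11 replicate 3 and 5.23 and 3.68 on PBS replicate 3. Krt6a, its near-identical neighbour, was detected by both of its probes on PBS replicate 3 alone, at raw signals of 192.7 and 128. The first of them read 96, 94.7 and 76.5 with IL6, 85, 94.2 and 90.2 with IL11 and 77.5 and 84.1 on PBS replicates 1 and 2. How much of the Krt6a and Krt6b signals came from the other copy was not tested.

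Krt16, a type I partner of Krt6a, had raw signals of 183.2, 171.2 and 121.9 with IL6, 123.6, 195.8 and 179.4 with IL11 and 100.7, 99.4 and 252.9 with PBS. It was highest on PBS replicate 3, and IL11 replicate 2 came second.

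The keratins of cornified epidermis showed no peak of that size. Krt10, the type I keratin of upper epidermal layers, had log2 levels of 8.68, 8.84 and 8.24 with IL6, 8.94, 8.89 and 9.15 with IL11 and 8.57, 8.90 and 9.07 with PBS. Its highest arrays were again IL11 replicate 3 and PBS replicate 3, by 0.31 and 0.24 against the median of the 7. Krt1, its type II partner, was detected on no array, with raw signals between 83.3 and 127.8 on the 7 other arrays, 97.1 on IL11 replicate 3 and 90.7 on PBS replicate 3. Krt2, Krt9 and Krt77, further epidermal keratins, were likewise detected on no array. Krt78, a type II squamous keratin, was detected on all arrays by all of its 3 probes, which on PBS replicate 3 lay at -0.51, -0.40 and -0.67 against the median of the 7.

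**Figure D3:**
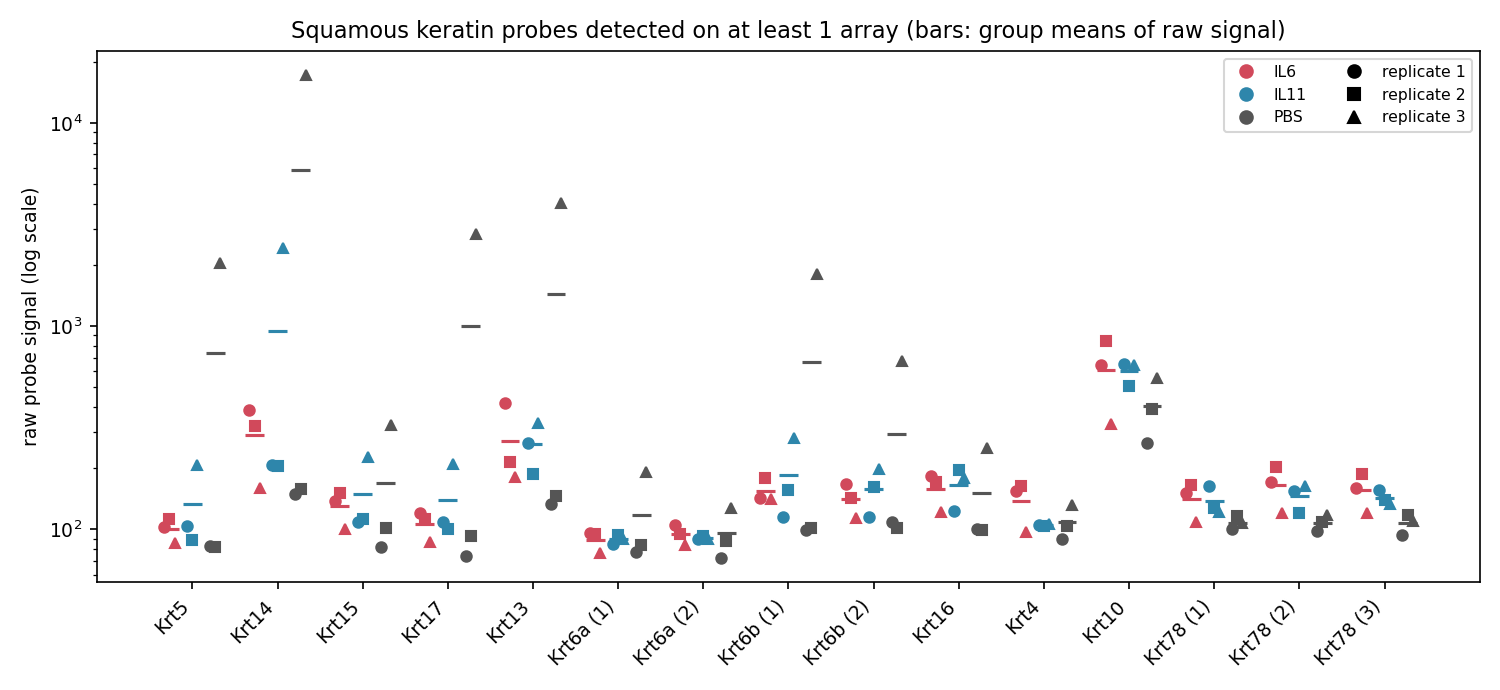
Raw signal, on a log scale, of the 15 squamous keratin probes detected on at least 1 array, with colours for groups, marker shapes for replicates and bars for group means of raw signal; numbers in brackets tell probes of 1 gene apart. PBS replicate 3 reaches 17220 for Krt14 and 2049.3 for Krt5, and IL11 replicate 3 is next for both, at 2435 and 208.2, while Krt78 lacks this pattern.

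The fitted changes of the squamous keratins had wide intervals. The change of Krt14 was -2.26 ± 1.78 (SE) with IL6 and -1.10 ± 1.78 (SE) with IL11, with limma adjusted p of 0.56 and 0.801. Without IL11 replicate 3 and PBS replicate 3 the changes were 0.09 and -0.17. The values of Krt13 had the opposite sign without these 2 arrays, at 0.23 and 0.29, against -1.53 ± 1.20 (SE) with IL6 and -1.17 ± 1.20 (SE) with IL11 on all arrays. Those of Krt15 did so too, with -0.73 ± 0.87 (SE) with IL6 and -0.22 ± 0.87 (SE) with IL11 on all arrays, and 0.36 and 0.12 without the 2 arrays.

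For Krt6b the changes were -1.46 ± 1.32 and -1.34 ± 0.93 (SE) with IL6 and -0.90 ± 1.32 and -0.75 ± 0.93 (SE) with IL11 in its 2 probes, all short of the threshold. Without IL11 replicate 3 and PBS replicate 3 they were 0.39 and -0.08 with IL6 and 0.29 and 0.12 with IL11, so the sign turned in 1 probe with IL6 and in both with IL11. The change of Krt16 was -0.21 ± 0.63 (SE) with IL6 and 0.21 ± 0.63 (SE) with IL11, and 0.53 and 0.78 without these 2 arrays. For Krt10 the change was -0.26 ± 0.21 (SE) with IL6 and 0.15 ± 0.21 (SE) with IL11, with adjusted p of 0.576 and 0.776 in limma.

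The median change of the 11 squamous probes tested was -0.26 with IL6 and -0.22 with IL11, and without the 2 arrays it was 0.23 and 0.16. For IL11 minus IL6 it was 0.41, and 0.06 without them. The level of a list on an array was also summarised as the mean log2 deviation of its tested genes from their means over the 9 arrays. The squamous list stood at -0.18, -0.50 and -0.47 on the IL6 arrays, -0.61, -0.23 and 0.82 on the IL11 arrays and -0.53, -0.63 and 2.33 on the PBS arrays. The simple-epithelial list stayed between -0.16 and 0.24 on all 9.

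The difference between the lists, simple-epithelial minus squamous, was 0.16, 0.36 and 0.71 on the IL6 arrays, 0.53, 0.24 and -0.99 on the IL11 arrays and 0.63, 0.76 and -2.41 on the PBS arrays. It was negative on IL11 replicate 3 and PBS replicate 3 and positive on the other 7 arrays. The group means were 0.41 ± 0.28 with IL6, -0.07 ± 0.81 with IL11 and -0.34 ± 1.80 with PBS (SD, n = 3 each). IL6 minus PBS came to 0.75 and IL11 minus PBS to 0.27, both less than the spread of the PBS arrays, and without the 2 arrays these differences were -0.29 and -0.31. Leaving out PBS replicate 3 alone gave -0.29 with IL6 and -0.77 with IL11. IL11 minus IL6 was -0.48, and -0.02 without IL11 replicate 3.

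**Figure D4:**
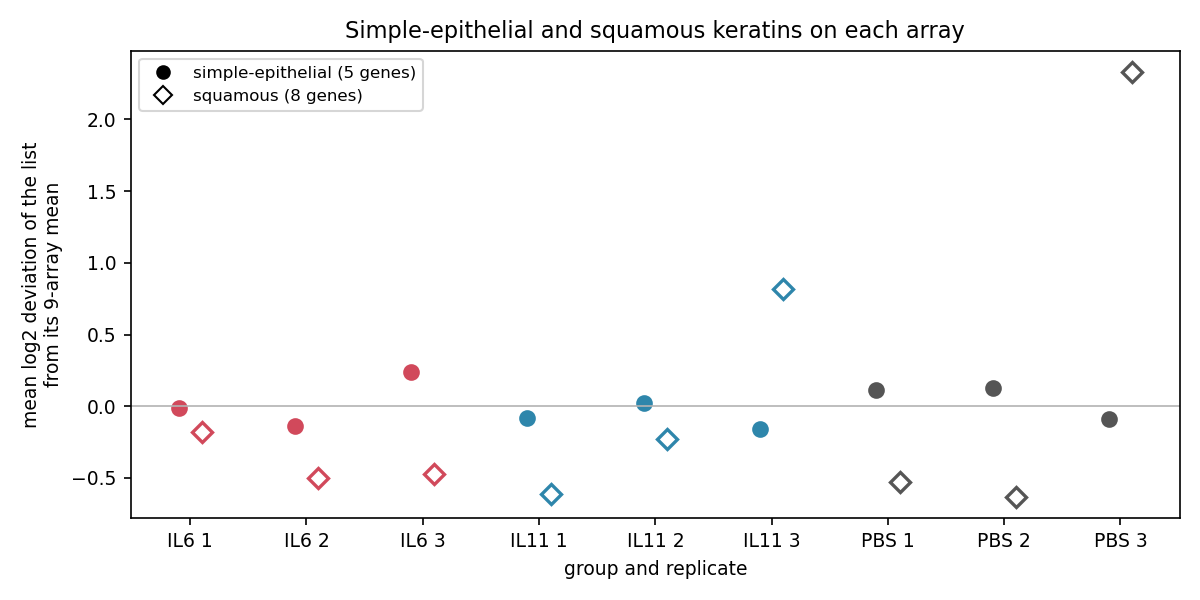
Mean log2 deviation from the 9-array mean for the 5 simple-epithelial keratin genes (filled circles) and the 8 squamous keratin genes tested (open diamonds), on each array of the IL6, IL11 and PBS groups. The circles stay between -0.16 and 0.24, while the diamonds reach 0.82 on IL11 replicate 3 and 2.33 on PBS replicate 3.

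The number of squamous keratin probes detected was largest on the same arrays. It was 9, 10 and 10 on the IL6 arrays, 7, 9 and 12 on the IL11 arrays and 9, 7 and 15 on the PBS arrays, of 20 in all. The 5 simple-epithelial probes were detected on each array. Of the 11 squamous probes tested, 7 on IL11 replicate 3 and 8 on PBS replicate 3 lay above all of the other 7 arrays, against 11% and 21.2% of all probes tested, counts that describe arrays singled out after their values were seen. On PBS replicate 3, 14 of all 18925 tested probes exceeded the other 7 arrays by more than 2 log2 units, and 1 probe did on IL11 replicate 3.

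Other genes of squamous epithelium, from a list of 20 genes with 31 probes, were detected in the largest number on PBS replicate 3. Of the 31 probes 11, 11 and 12 were detected on the IL6 arrays, 12, 13 and 13 on the IL11 arrays and 12, 13 and 18 on the PBS arrays, so IL11 replicate 3 did not stand apart in this count. Detection on IL11 replicate 3 or PBS replicate 3 and on no other array was seen for 7 of them. The share of all probes with this pattern was not computed, so the count cannot tell whether there was an excess. Trp63, which encodes the master regulator of squamous basal cells, had raw signals of 119.2 on IL11 replicate 3 and 492.3 on PBS replicate 3, and 75.7 to 113.3 on the other 7, where it was not detected. A second Trp63 probe was detected on no array. Sprr2d, a cornified envelope gene with close family copies, named here after its values were seen, read 157.4 on IL11 replicate 3, 5258.8 on PBS replicate 3 and 81.2 to 114.5 on the others.

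Sprr3 and Cnfn, further cornified envelope genes, were high on PBS replicate 3 alone. Sprr3 lay 0.09 above the median of the 7 on IL11 replicate 3 and 4.22 above it on PBS replicate 3, and the tested probe of Cnfn at -0.15 and 5.38. These genes too were named after their values were seen. The involucrin gene Ivl ran the other way on PBS replicate 3, at -0.82 and -1.40 in its 2 probes. Most tested probes of the list also lay below that median, among them those of Sfn (-0.82), Sprr1a (-0.29) and Lor (-0.15). Above it lay those of Cnfn, Rptn (1.76) and 1 probe of Sbsn (0.03). Of the 14 tested probes, 0 on IL11 replicate 3 and 2 on PBS replicate 3 lay above all of the other 7 arrays. Of all tested probes, 11% and 21.2% did. The desmosomal cadherin genes Dsg3 and Dsc3 of squamous cells were detected on no array. The mean log2 deviation over the list's tested genes was 0.08, -0.31 and -0.17 on the IL6 arrays, -0.01, 0.07 and -0.14 on the IL11 arrays and 0.04, 0.07 and 0.37 on the PBS arrays, highest on PBS replicate 3 and low on IL11 replicate 3. The summed raw signal of the list, to which bright probes such as those of Ly6d add most, was 25638 to 44717 on the IL6 arrays, 26752 to 36797 on the IL11 arrays and 27330 to 32933 on the PBS arrays, with PBS replicate 3 the lowest of its group.

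**Figure D5:**
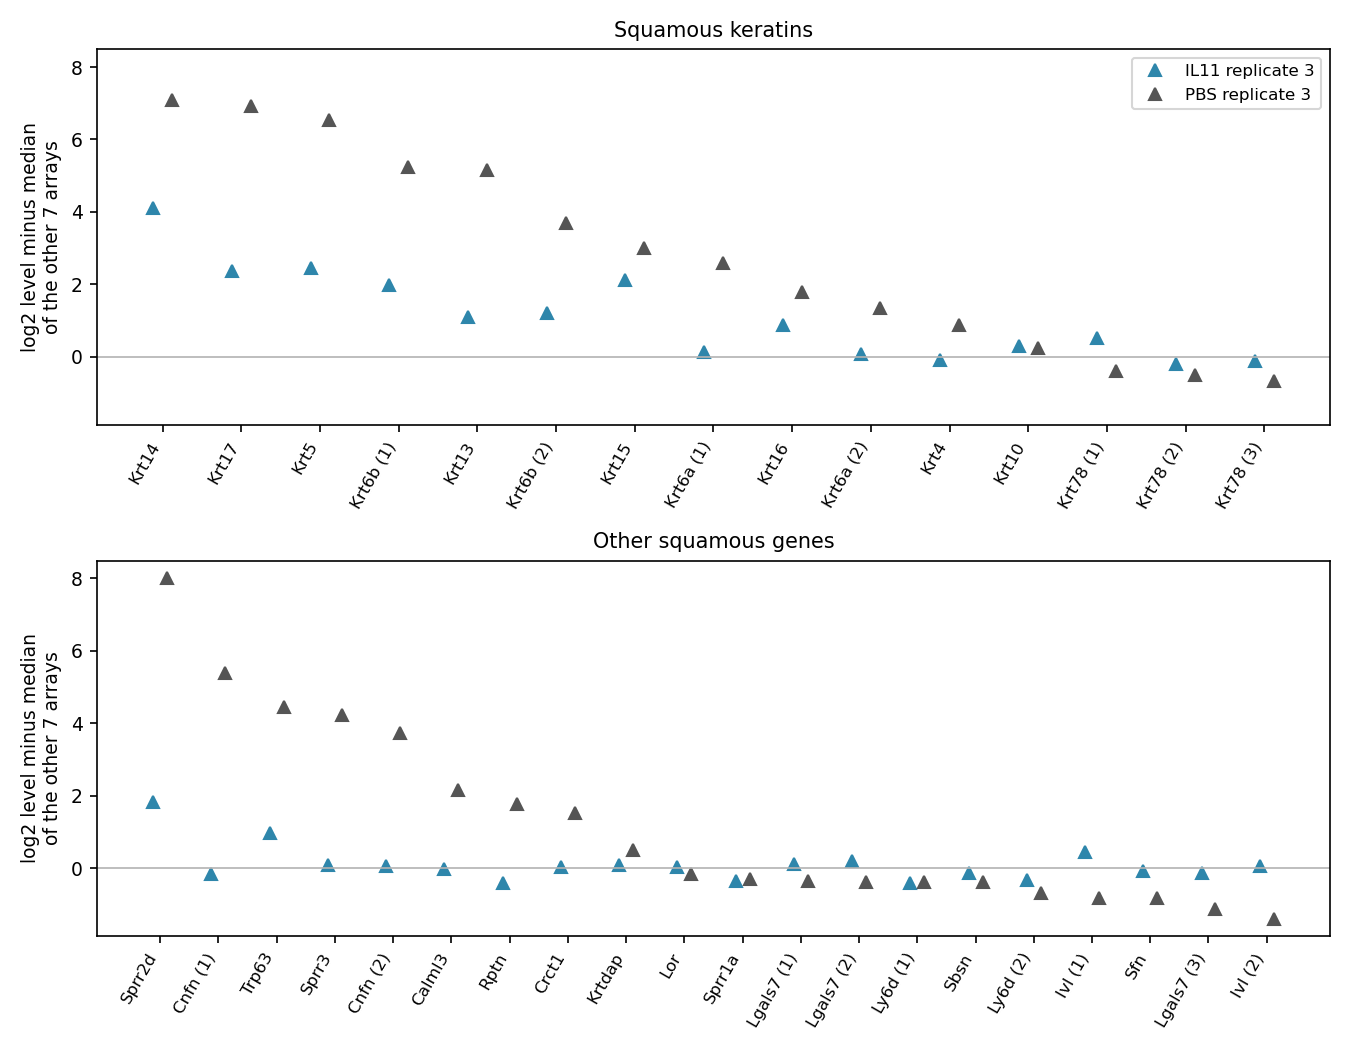
Log2 level on IL11 replicate 3 and PBS replicate 3 minus the median of the other 7 arrays, for squamous keratins (top) and other squamous genes (bottom), all probes detected on at least 1 of the 2 arrays. Krt14 reaches 4.10 and 7.08 and Krt5 2.45 and 6.55, while Sprr3 and Cnfn are raised on PBS replicate 3 and lie near 0 on IL11 replicate 3.

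Smooth muscle genes also varied between these tumours. Their mean log2 deviation, over the 5 genes of 9 tested probes, was -0.42, -0.36 and -0.60 on the IL6 arrays, 0.20, -0.36 and 0.41 on the IL11 arrays and -0.23, 0.46 and 0.91 on the PBS arrays. Of the 9 probes, several of them of Acta2, 2 on IL11 replicate 3 and 7 on PBS replicate 3 lay above all of the 7 arrays that did not stand apart, against 11% and 21.2% of all tested probes. Their summed raw signal was 7974 to 16914 with IL6, 9560 to 18565 with IL11 and 6465 to 22285 with PBS. Macrophage genes stood at -0.44, 0.09 and -0.28 with IL6, -0.03, -0.79 and -0.21 with IL11 and 0.20, 0.75 and 0.69 with PBS, and no tested probe of either list passed in limma. With an unadjusted p under 0.05 in limma there were 6 of 9 smooth muscle probes with IL6, 0 with IL11 and 2 in IL11 minus IL6, and 6 of 11 macrophage probes with IL6, 7 with IL11 and 0 in IL11 minus IL6, against 14.4%, 13.4% and 2.35% of all tested probes. The smooth muscle probes stood for 5 genes and the macrophage probes for 9, and probes of 1 gene are not separate members, so these counts show no excess of genes. The part of these cell types, or of squamous tissue in a sample, in the keratin values was not tested. In bulk tissue, fewer cells of a type and less RNA per cell cannot be told apart.

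Among the other keratins, Krt80, a type II keratin, was the member nearest to the threshold. Its log2 levels were 5.68, 5.75 and 5.46 with IL6, 5.55, 5.63 and 5.22 with IL11 and 5.13, 5.00 and 4.98 with PBS. Every IL6 array and every IL11 array lay above every PBS array, and the probe was detected on all arrays of both cytokine groups and on no PBS array. It thus entered the test through the cytokine arrays alone, and its entry is no evidence of a rise. Its raw signals, from 91.2 to 179.8, were near background. The change was 0.60 ± 0.18 (SE, adjusted p = 0.225 in limma) with IL6 and 0.43 ± 0.18 (SE, adjusted p = 0.346 in limma) with IL11.

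Where no array of the dimmer group detected a probe, its fold is also given as a bound, for which each undetected value was raised to the lowest detected level of its array. This bound allows for the detection limit alone and not for the spread between arrays. Krt80 averaged 5.63 with IL6, 5.47 with IL11 and 5.04 with PBS. By the bound its mean was 1.38-fold higher with IL6 and 1.23-fold higher with IL11. The intervals of its fold, 1.15 to 1.98 with IL6 and 1.03 to 1.77 with IL11, reached below these values. They are not adjusted for the number of probes tested, and neither change of Krt80 passed the threshold. Without IL11 replicate 3 and PBS replicate 3 its changes were 0.57 and 0.53, with adjusted p of 0.333 and 0.496 in limma. Its log2 level was the lowest of its group on both of the arrays on which squamous keratins were high.

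Groups that did not overlap were few. With IL6 against PBS, 2 of the 26 keratin probes lay wholly higher and 0 wholly lower, against 8.46% and 8.32% of all probes tested. Besides Krt80 this was 1 of the 3 probes of Krt78, with log2 levels of 5.89, 6.06 and 5.93 with IL6 and 5.61, 5.50 and 5.49 with PBS. Its change was 0.43 ± 0.24 (SE, adjusted p = 0.415 in limma), while the other 2 probes of the gene gave 0.32 and -0.08.

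With IL11 against PBS, 2 probes lay wholly higher, against 8.74% of all probes, and 2 wholly lower, against 10%. Besides Krt80 the higher one was a probe of Krt75, a type II keratin of the hair follicle companion layer, with log2 levels of 5.10, 5.66 and 5.29 with IL11 and 5.01, 4.76 and 5.00 with PBS. Its change was 0.43 ± 0.25 (SE, adjusted p = 0.467 in limma). It averaged 5.35 with IL11 and 4.92 with PBS, 1.13-fold higher by the bound, since no PBS array detected it. The 95% interval of its fold, 0.907 to 2, included no change. Another Krt75 probe, with raw signals of 170.9, 144.7 and 91 with IL6, 124.5, 107.6 and 107.8 with IL11 and 82.8, 87.9 and 102.8 with PBS, overlapped between groups. Its change was 0.57 ± 0.28 (SE, adjusted p = 0.377 in limma) with IL6, where its log2 level averaged 5.27 against 4.70 with PBS, 1.07-fold higher by the bound. The 95% interval, 0.962-fold to 2.29-fold, included no change. No PBS array detected either of these Krt75 probes, so both entered the test through cytokine arrays alone.

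The lower ones were Krt23 and Krt4. Krt23, a type I keratin, had log2 levels of 12.77 and 12.42 on IL6 replicates 1 and 2, 12.18, 12.73 and 12.48 with IL11 and 12.91, 12.78 and 13.05 with PBS. All 3 IL11 arrays lay under all 3 PBS arrays, and the IL6 arrays overlapped with both, replicate 3 lying between PBS replicates 1 and 3. The change with IL11 was -0.45 ± 0.21 (SE, adjusted p = 0.389 in limma), or 0.734-fold with an interval of 0.528 to 1.02, and with IL6 it was -0.19 ± 0.21 (SE).

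Krt4 averaged 5.36 with IL6, 4.83 with IL11 and 5.37 with PBS. With IL11 the change was -0.54 ± 0.26 (SE, adjusted p = 0.392 in limma). As no IL11 array detected the probe, its mean was 1.16-fold lower with IL11 by the bound. The interval of its fold, 0.464 to 1.03, included no change. Another Krt78 probe, with the second smallest p of the family in this comparison, had log2 levels of 6.03, 6.03 and 5.79 with IL11 and 5.32, 5.93 and 5.25 with PBS. Its change was 0.45 ± 0.21 (SE, adjusted p = 0.387 in limma), and the groups overlapped.

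In IL11 minus IL6, 2 probes lay wholly higher, against 4.77% of all probes, and 1 wholly lower, against 5.62%. Krt10 was higher in IL11, by 0.41 ± 0.21 (SE), and so was Krt82, a hair cuticle keratin, by 0.37 ± 0.23 (SE). The log2 levels of Krt82 were 5.29, 5.13 and 5.17 with IL11 and 4.83, 5.08 and 4.58 with IL6. It was detected on 2 IL11 arrays, no IL6 array and 1 PBS array. It averaged 5.20 with IL11 and 4.83 with IL6, 1.03-fold higher by the bound. The interval of its fold, 0.9 to 1.85, included no change. Krt4 was the lower one, at -0.53 ± 0.26 (SE) or 1.15-fold lower by the bound. Here too the interval of the fold, 0.467 to 1.03, included no change. All 3 probes had an adjusted p of 1 in limma.

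Krt12, the type I keratin of the cornea, was detected on every array by both of its probes. Its raw signals in 1 probe were 345.6, 235.6 and 151.4 with IL6, 470, 149.8 and 138.1 with IL11 and 119, 221.3 and 164 with PBS, and in the other 336.6, 209.1 and 138.6 with IL6, 420.7, 123.9 and 113.6 with IL11 and 108.5, 200.5 and 166.4 with PBS. Both probes put IL11 replicate 1 highest, so the peak of Krt12 fell on another array than that of the squamous keratins. Its changes were -0.11 ± 0.62 and -0.11 ± 0.73 (SE) with IL6 and -0.11 ± 0.62 and -0.47 ± 0.73 (SE) with IL11.

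Of the hair keratin probes 25 of 32 were detected on no array. Krt79, a type II keratin of the hair follicle canal and sebaceous gland, was the one hair-class probe detected on all 9 arrays. Its raw signals were 376.9, 531.1 and 276.3 with IL6, 429.1, 301.3 and 276.2 with IL11 and 212.2, 310.6 and 165.6 with PBS. PBS replicate 3 was the lowest, at -1.45 on the log2 scale against the median of the 7 arrays other than this one and IL11 replicate 3, opposite to the squamous keratins. The change of Krt79 was 0.17 ± 0.42 (SE) with IL6 and 0.21 ± 0.42 (SE) with IL11, and without these 2 arrays it was -0.40 and -0.21, with the opposite sign.

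The remaining tested members were near background. Krt33a, a hair cortex keratin, was detected on 5 arrays, with changes of 0.00 ± 0.20 (SE) with IL6 and -0.19 ± 0.20 (SE) with IL11. Krt222 was detected on 5 arrays as well, with 0.14 ± 0.25 (SE) with IL6 and 0.18 ± 0.25 (SE) with IL11. Krt86 and Krt42 were each detected by 1 probe on 2 PBS arrays and on no other array, and KRT2-PS1 on PBS replicate 3 alone.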

How the data were processed

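Total RNA of 9 gastric tumours, 3 per group, was hybridised to bead arrays. The deposited intensity values are raw mean bead signals per probe, without background subtraction or normalization, and per the file headers BeadStudio 3.4.0 exported them. Detection values, deposited as a fraction from 0 to 1, carry a p-value heading but increased with signal (Spearman rho 0.985 to 0.99 over the probes of an array), and were read as 1 minus a p-value. The authors also deposited a value table, read as log2 because of its range. Each of its columns had a median of 7.3. Its log base, centring and transform stay unknown, and its row names could not be matched to probe numbers, so it served for counts over all probes alone. lumi and Partek are named, without roles, per the submitters' processing notes. The number of columns of no known sample was 0.

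Signals were background-corrected and quantile-normalized with the neqc function of limma 3.58.1 in R 4.3.3 (offset 16, negative controls inferred from the detection values) and log2-transformed. The 18925 probes detected on at least 3 of the 9 arrays were fitted with a mean per group (lmFit, eBayes, two-sided), each probe on its own, with Benjamini-Hochberg adjustment over all of them. Each cytokine was compared with PBS, and IL11 with IL6. The number of arrays limits the precision. Gene names came from a RefSeq table of GRCm38.p6: 27400 probes matched a current symbol, 8300 an older one and 9581 kept the deposited name. Of the keratin probes, 7 were named through an older symbol.

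Each keratin gene with a tested probe is named, and full values are given for Krt8, Krt18, Krt19, Krt7, Krt20, Krt5, Krt14, Krt15, Krt4, Krt13, Krt6a, Krt16, Krt17, Krt1 and Krt10 and for the 3 smallest p of the family in each comparison. Outside the family the rule named Trp63, Epcam, Gkn1, Muc5ac, Vim, Socs3 and list members past the threshold, of which there were none. The members, lists and rule were chosen with earlier results of these data known. The fit was tested on simulated data. Same-numbered arrays of different groups had deviations that correlated at -0.118 to 0.349 over 9 pairs, and the numbers were not taken to pair the mice. Alternatives covered background correction, offset, scaling, the probe filter, 1 probe per gene, fits on 2 groups alone, a replicate block, array weights, moderation and leaving out arrays.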

Additional observations from a re-analysis of the deposited data

Results flagged for a closer look

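A probe of Krt26, a type I keratin of the inner root sheath of hair that did not enter the test, was detected on IL11 replicate 3 at a raw signal of 110.6 and on no PBS array. Raw signals on the 7 arrays other than IL11 replicate 3 and PBS replicate 3 ran from 82.1 to 134.7 without detection, and PBS replicate 3 read 94.1.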

How the results depend on the processing

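The count of keratins past the threshold was 0 in all 3 comparisons under every alternative run, also with the replicate block (smallest adjusted p 0.271 with IL6, 0.366 with IL11 and 1 for IL11 minus IL6) and with 1 probe per gene. Of 1455 alternative values for the 26 tested keratin probes, 1338 kept their sign and 117 did not, and the smallest adjusted p among them was 0.0903. Over all probes the count past the threshold moved from 50 with IL6 and 17 with IL11 to 27 and 0 with the block, 27 and 11 on the authors' values, 32 and 5 without the probe filter, 5 and 0 with only the arrays of the 2 groups, and 18 and 5 with array weights. An offset of 50 gave 28 with IL11, and leaving out each array in turn gave 2 to 737 with IL6 and 0 to 515 with IL11. In IL11 minus IL6 the count was 0, but 2 with only the arrays of the 2 groups and 3 with array weights. Without both arrays numbered 3, an alternative added after seeing the data, the counts were 28 and 0. In that setting changes with the opposite sign in IL6 minus PBS were those of Krt13 (0.23), Krt14 (0.09), Krt15 (0.36), Krt16 (0.53), Krt19 (-0.01), Krt222 (-0.03), Krt4 (0.27), 1 Krt6b probe (0.39), Krt7 (-0.07) and Krt79 (-0.40), in IL11 minus PBS 1 Krt12 probe (0.15), Krt13 (0.29), Krt15 (0.12), Krt222 (-0.01), both Krt6b probes (0.29 and 0.12), Krt79 (-0.21) and Krt8 (0.00), and in IL11 minus IL6 both Krt12 probes (0.19 and 0.47), Krt14 (-0.26), Krt15 (-0.24) and 1 Krt6b probe (-0.10). Median scaling turned Krt18 (-0.06), Krt19 (-0.29), Krt222 (-0.24), Krt7 (-0.14) and 1 Krt75 probe (-0.05) in IL6 minus PBS, Krt16 (-0.01), Krt222 (-0.09) and the other Krt75 probe (-0.02) in IL11 minus PBS, and 1 Krt12 probe (0.02), Krt19 (0.04), Krt20 (0.03), Krt7 (0.00) and 1 Krt78 probe (0.06) in IL11 minus IL6. Array weights turned Krt19 (-0.02), Krt33a (0.03) and Krt4 (0.02) in IL6 minus PBS, that Krt12 probe (0.08) in IL11 minus PBS, and the same Krt12 probe (0.21), 1 Krt75 probe (-0.02), the Krt78 probe (0.02) and Epcam (-0.03) in IL11 minus IL6. For this Krt12 probe no background correction gave 0.01 in IL11 minus PBS. In IL11 minus IL6 it gave 0.07 for the Krt12 and 0.01 for the Krt78 probe, and an offset of 50 gave 0.05 and 0.00. Leaving out each array in turn turned the sign in IL6 minus PBS of both Krt12 probes (-0.53 to 0.29 and -0.46 to 0.31), Krt13 (-2.44 to 0.23), Krt14 (-3.51 to 0.09), Krt15 (-1.40 to 0.36), Krt16 (-0.78 to 0.53), Krt19 (-0.13 to 0.08), Krt20 (-0.27 to 0.04), Krt222 (-0.03 to 0.37), Krt33a (-0.12 to 0.15), Krt4 (-0.20 to 0.27), 1 Krt6b probe (-2.53 to 0.39), Krt7 (-0.13 to 0.21), 1 Krt78 probe (-0.29 to 0.05) and Krt79 (-0.40 to 0.55). In IL11 minus PBS it did so for both Krt12 probes (-1.40 to 0.08 and -0.87 to 0.36), Krt13 (-2.08 to 0.59), Krt14 (-2.52 to 1.25), Krt15 (-0.97 to 0.87), Krt16 (-0.36 to 0.95), both Krt6b probes (-1.97 to 0.95 and -1.65 to 0.50), Krt7 (-0.18 to 0.01), 1 Krt78 probe (-0.03 to 0.33), Krt79 (-0.35 to 0.60), Krt8 (-0.08 to 0.06), Krt82 (-0.18 to 0.20) and Vim (-0.53 to 0.12). In IL11 minus IL6 it did so for Epcam (-0.18 to 0.13), both Krt12 probes (-1.28 to 0.19 and -0.77 to 0.47), Krt13 (-0.07 to 0.80), Krt14 (-0.26 to 1.96), Krt15 (-0.24 to 0.96), Krt19 (-0.19 to 0.02), Krt222 (-0.10 to 0.20), 1 Krt6b probe (-0.10 to 1.25), Krt7 (-0.29 to 0.04), both Krt75 probes (-0.44 to 0.11 and -0.17 to 0.31), 1 Krt78 probe (-0.24 to 0.25) and Krt79 (-0.09 to 0.19). The call of Socs3 with IL6 was also lost without the probe filter (2.32, adjusted p = 0.0531 in limma) and with only the arrays of the 2 groups (2.32, adjusted p = 0.0916 in limma), while with IL11 it passed at an offset of 50 (1.84, adjusted p = 0.0458 in limma) and with an intensity trend (1.85, adjusted p = 0.0418 in limma). The causes were not tested. The authors' values were not run for single keratins, since their rows could not be named. Signal over background limits Krt4, Krt75, Krt80, Krt82 and the other dim probes. The number of arrays, 3 per group, limits the rest.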

Other observations

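Among the desmosome and plakin genes, whose proteins anchor keratin filaments, 27 probes (13 genes) were tested and none passed in any comparison in limma. Of these, 6 on IL11 replicate 3 and 4 on PBS replicate 3 lay above the 7 arrays that did not stand apart, against 11% and 21.2% of all tested probes. With an unadjusted p under 0.05 there were 4 of them with IL6, 7 with IL11 and 2 in IL11 minus IL6, against 14.4%, 13.4% and 2.35% of all tested probes. Pkp1, a desmosomal plaque gene of stratified epithelia named after its values were seen, had raw signals of 246.8, 271.8 and 122.8 with IL6, 158.2, 160.4 and 166.7 with IL11 and 140.8, 188.9 and 424.9 with PBS. PBS replicate 3 was again the highest. In log2 levels all 3 arrays of each cytokine lay under all 3 PBS arrays, and the changes were -1.19 ± 0.38 (SE, adjusted p = 0.248 in limma) with IL6 and -1.37 ± 0.38 (SE, adjusted p = 0.245 in limma) with IL11. Without IL11 replicate 3 and PBS replicate 3 they were -0.74 and -0.99.

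Intermediate filament genes other than keratins had 16 tested probes (7 genes), none of which passed in limma, and 2, 0 and 0 of which had an unadjusted p under 0.05 with IL6, with IL11 and in IL11 minus IL6, against the same 14.4%, 13.4% and 2.35% of all tested probes. Their median log2 change was -0.10 with IL6 and -0.08 with IL11, against -0.01 over all probes in both. Of the gastric epithelial list 25 probes (15 genes) were tested and none passed in limma, with 1, 2 and 1 at an unadjusted p under 0.05, to be read against these same shares. Its median log2 change was 0.06 with IL6, 0.13 with IL11 and 0.04 for IL11 minus IL6. The list's mean log2 deviation was 0.22, -0.30 and 0.06 on the IL6 arrays, 0.27, 0.35 and -0.03 on the IL11 arrays and -0.18, -0.03 and -0.38 on the PBS arrays.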
